A study of Mus musculus with 6 samples.

Results

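The genes described here are 9 transcription factors of the proneural and early neuronal programme: Neurog1, Neurog2, Neurod1, Neurod2, Neurod4, Neurod6, Atoh1, Eomes and Tbr1. They were chosen by name, and each symbol was matched to its gene in the GENCODE vM21 annotation, which holds 21951 protein-coding genes. Expression was measured by RNASeq in 2 libraries of wild type neural stem cells (NSC) and in 2 libraries labelled NSC Bmi1Over, whose genotype is STOPFloxBmi1;NestinCre. H3K27me3, the histone mark laid down by the Polycomb repressive complex 2, was measured by ChIPSeq in 1 library of each kind. All were primary cultures from the cerebral hemispheres of E16.5 mouse embryos, grown in medium with EGF and FGF. In the transgenic cultures Cre is driven by Nestin, so that the Bmi1 transgene is switched on in Nestin-expressing cells and their progeny. The mGIC samples of the study were not analysed here.

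Proneural factors carry a basic helix-loop-helix (bHLH) domain, bind E-box sequences as dimers with broadly expressed E proteins, and drive progenitors out of the cell cycle towards neurons. In the developing cerebral cortex Neurog1 and Neurog2 act in radial glia and switch on Eomes (Tbr2) in intermediate progenitors, the Neurod genes in newly formed neurons and Tbr1 in early-born deep layer neurons. Atoh1 acts outside the cortex, in progenitors of cerebellar granule cells and inner ear hair cells. Id and Hes proteins oppose the proneural factors, and many developmental regulators of this kind are known targets of Polycomb repression.

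Between 18112100 and 61353076 reads were counted on genes per RNASeq library, and replicate 2 labelled NSC Bmi1Over was the deepest. The share of unmapped reads was 11.2% to 13.7% in NSC and 16.2% to 17.6% in the others, and its part in the results was not tested. The count on the Bmi1 gene was not higher in the libraries labelled NSC Bmi1Over. Whether reads from the transgene are counted on this gene is not known from the files, so that this count does not show whether Bmi1 was overexpressed. It stood in NSC at 133.3 and 123.5 CPM, the counts scaled to the TMM-normalised library size, against 118.6 and 112.6 CPM in the others, a log2 fold change of -0.15 with an adjusted p of 0.463 by edgeR's quasi-likelihood test. Every direction below is therefore between libraries by their labels. The cultures held transcripts of all 8 neural stem cell markers looked at, at very different levels. Slc1a3, Vim, Fabp7 and Nes were the highest, at means of 1031 to 2798 CPM in each group. The others ran from Sox2, at means of 238 CPM in NSC and 178 CPM in NSC Bmi1Over, down to Prom1, at 5.68 and 6.10 CPM. The summed level of 6 microglia markers was 1.33 to 3.17 CPM and that of 8 endothelial and mesenchymal markers 2.63 to 3.90 CPM.

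The 9 factors were at or close to the limit of detection in all 4 libraries. Of 133369871 reads counted on genes, 220 fell on them, and their summed level lay between 1.31 and 1.98 CPM in every library. Neurog1, Neurod2, Neurod6 and Atoh1 had 0 reads in all 4 libraries. A gene without a read was found among all protein-coding genes in the count files in 21.6% of cases (4707 of 21764). A count of 0 allows a level of up to 0.0525 CPM in the deepest library and of up to 0.171 CPM in the shallowest, taking 3 reads as the limit. In bulk cultures, few cells with much transcript and many cells with little cannot be told apart.

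Neurog2 (chr3:127633135-127635631, plus strand), the main neurogenic factor of the dorsal cortex, had 20 and 2 reads in NSC. In the libraries labelled NSC Bmi1Over it had 1 and 11 reads. NSC replicate 1 stood apart from its own group, at 0.634 CPM with an exact 95% Poisson interval of 0.387 to 0.979, against 0.0791 CPM with an interval of 0.00958 to 0.286 in replicate 2. These intervals cover counting error only. The groups overlapped, so that the spread between the NSC cultures was wider than the distance between the group means of 0.356 ± 0.392 and 0.125 ± 0.0957 CPM (SD, n = 2).

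Neurod1 (chr2:79452521-79456751, minus strand), which promotes neuronal differentiation and survival, had the most reads of the set. It had 16 and 17 reads in NSC, against 13 and 65 where the label was NSC Bmi1Over. Scaled for depth the levels were 0.507 and 0.672 CPM in NSC, and 0.743 and 1.14 CPM in the others. Both transgenic libraries thus lay above both NSC libraries, as did, in one direction or the other, 59.0% of the 15521 genes tested. Neurod1 lies within the annotated span of Cerkl on the same strand and overlaps the non-coding gene Gm26755 on the opposite one. Its count is therefore uncertain. Cerkl had 6, 2, 0 and 7 reads in the order of the libraries above and Gm26755 had none.

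Neurod4 (chr10:130268152-130280240, minus strand), a factor of retinal and midbrain neurons among others, had 3 and 2 reads in NSC and 2 and 4 reads in the others. Its levels overlapped between the groups, from 0.0700 to 0.114 CPM. Eomes (chr9:118478212-118486132, plus strand), the T-box factor of intermediate progenitors, had 2 and 7 reads in NSC and 5 and 14 in the others. Its levels, from 0.0634 to 0.286 CPM, overlapped too. The antisense gene Gm33460 overlaps its 3′ end, with at most 2 reads per library. Tbr1 (chr2:61802930-61814114, plus strand), the T-box factor of layer 6 neurons, had 5 and 10 reads in NSC and 2 and 19 in the others. In each group its levels differed between the cultures more than the group means did.

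**Figure D1:**
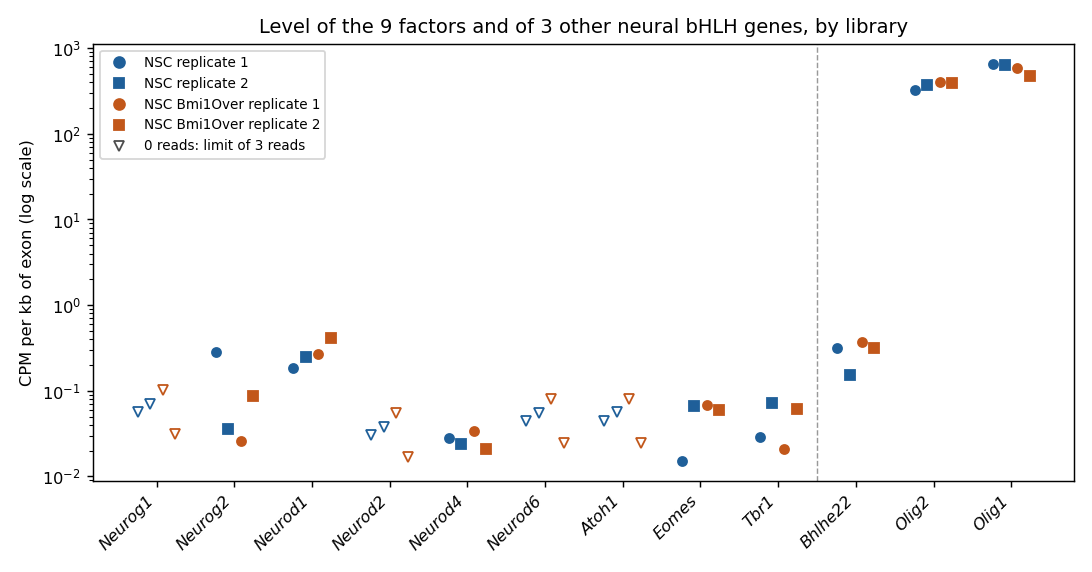
Level of each factor in each RNASeq library, in CPM per kb of merged exons on a log axis, with 3 other neural bHLH genes right of the dashed line. Filled points are libraries with reads and open triangles mark the limit set by 3 reads where a library had 0. The 9 factors lie at 0.417 CPM per kb or lower in every library, while Olig2 and Olig1 lie at 326 or higher.

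Levels of different genes were compared per kb of merged exons. In that unit Neurod1 was at 0.280 CPM per kb, averaged over the 4 libraries, and stood above 43.2% of protein-coding genes. Neurog2 followed at 0.108, Eomes at 0.0524, Tbr1 at 0.0456 and Neurod4 at 0.0268 CPM per kb. The median over protein-coding genes was 0.985 CPM per kb. From Neurod1 down to Neurod4, the ranges of neighbours in this order overlapped, and so the order is not resolved step by step. Eomes and Tbr1 changed places, at 0.0612 and 0.0629 CPM per kb, when the length of the longest transcript was used.

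The study compared mGIC with NSC and with NSC Bmi1Over, which it describes as having basal and increased levels of Bmi1. Here NSC Bmi1Over was compared with NSC. As the count on Bmi1 does not show the increase, this compares the factors between the labelled groups. No factor was called at an adjusted p under 0.05, and none had an unadjusted p under 0.05. Over all genes 334 of 15521 were called (2.15%), with 315 higher (2.03%) and 19 lower (0.122%) where the label was NSC Bmi1Over. Higher genes made up 94.3% of the calls, and 64.4% of them when counts were scaled by library size alone. Only 1 of the 9 factors had enough reads to be tested. For Neurod1 the log2 fold change was 0.76 with a standard error of 0.38 and an adjusted p of 0.262 (edgeR's quasi-likelihood test). The group means were 0.590 ± 0.117 and 0.940 ± 0.279 CPM (SD, n = 2). In a fit without the filter on low counts, the log2 fold change was -1.29 for Neurog2, 0.65 for Eomes, -0.11 for Neurod4 and -0.04 for Tbr1, with standard errors from 0.66 to 1.17. The lowest adjusted p among these was 0.280, for Neurog2. The 8 factors without a test had too few reads to pass that filter, and what size of change could be shown for them was not tested. DESeq2 did not call Neurod1 either, and it gave no adjusted p for the other factors. For 2 against 2 libraries the smallest two-sided p of an exact permutation test is 0.333.

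The 3 protein-coding genes whose profile over the 4 libraries was nearest to that of Neurod1 were Dnah17, St8sia1 and Spred3, with root mean square differences of 0.0174, 0.0188 and 0.0197 in centred log2 CPM. Of 13322 genes compared, 2489 lay within 0.25 of Neurod1, so that with 4 libraries the likeness sets these apart little.

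Some other neural bHLH genes were transcribed at far higher levels in the same cultures. Olig1 and Olig2, which specify oligodendrocytes and motor neurons, were at 1392 ± 38.9 and 878 ± 74.8 CPM in NSC (SD, n = 2), and at 1152 ± 187 and 994 ± 17.4 CPM in the libraries labelled NSC Bmi1Over. Neither passed the test, with adjusted p of 0.418 and 0.548 by edgeR. Of the 11 genes in this list 4 were tested and none was called, and 5 had no read in any library: Neurog3, Ptf1a, Olig3, Nhlh2 and Bhlhe23. The last 5 were named after their values were seen. The median log2 fold change of the tested genes was -0.05, beside -0.01 over all tested genes.

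The partners and the antagonists of the proneural factors were present. The E proteins Tcf3 and Tcf12 were at means of 178 and 388 CPM in NSC and 163 and 362 CPM in the libraries labelled NSC Bmi1Over, and none of the 3 genes of the list was called. The Id and Hes list had 8 tested genes, none called, with a median log2 fold change of -0.37. Id3, which sequesters E proteins, was at 114 and 123 CPM in the groups, and Hes1, a repressor downstream of Notch, at 40.4 and 34.6 CPM. Id1 stood at 17.4 and 18.2 CPM. The lowest adjusted p of this list were those of Hey1 and Hes5, repressors downstream of Notch, which were named after their values were seen. Hey1 was at 27.6 and 20.3 CPM in NSC and at 12.6 and 14.8 CPM in the others, with a log2 fold change of -0.80 and an adjusted p of 0.0623 by edgeR. It was called in 6 of 11 alternatives, DESeq2 among them at an adjusted p of 0.00618, with a range of 0.000108 to 0.513. Hes5 had a log2 fold change of -0.74 and an adjusted p of 0.132, and was called in 3 of 11 alternatives, with a range of 0.0114 to 0.795.

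Among 14 genes known as targets of proneural factors, 13 were tested, 2 were called lower and 0 higher. Over all tested genes 0.122% were called lower and 2.03% higher. Rnd2, Elavl4 and Myt1, at log2 fold changes of -0.39, -0.44 and -0.40, were not called. Each was called in 1 of the 7 alternatives that kept all libraries. Sox4, a SoxC factor of immature neurons, fell from 151 and 111 CPM in NSC to 74.5 and 71.2 CPM, by 0.85 ± 0.16 (SE) on the log2 scale, with an adjusted p of 0.0440 by edgeR. Btg2, an antiproliferative gene of neurogenic divisions, fell from 55.5 and 44.7 CPM to 26.3 and 32.0 CPM, by 0.78 ± 0.16 (SE), with an adjusted p of 0.0471. Both lay just inside the threshold. Without NSC replicate 1 the adjusted p rose to 0.232 for Sox4 and 0.215 for Btg2, and without replicate 2 labelled NSC Bmi1Over it was 0.0812 for Sox4. The sum of the stranded columns gave 0.0689 for Sox4, and DESeq2's size factors gave 0.0552 for Btg2. Insm1, a zinc finger factor of basal progenitors that was also named after its values were seen, went the other way. It was at 8.33 and 7.48 CPM in NSC and at 15.9 and 12.2 CPM in the others, with a log2 fold change of 0.81 and an adjusted p of 0.0655 by edgeR. It was called in 5 of 11 alternatives, DESeq2 among them at an adjusted p of 0.0142, with a range of 0.00208 to 0.141. The median log2 fold change of the list was -0.17. The sums of some marker lists of other cell types were lower in the libraries labelled NSC Bmi1Over. The summed level of 6 astrocyte markers was 254 and 193 CPM in NSC against 137 and 125 CPM, and that of 7 GABAergic lineage markers was 21.2 and 13.3 against 5.03 and 10.1 CPM. Aldh1l1 and Aldoc made up most of the astrocyte sum and Gad1 most of the GABAergic sum. Gfap, Aqp4 and Gad2 of these lists had log2 fold changes of 0.03, -0.06 and -0.15. The sum of 6 oligodendrocyte lineage markers overlapped between the groups, at 237 and 314 CPM in NSC against 275 and 485 CPM. The part of other cell types in the lower Sox4 and Btg2 was not tested.

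**Figure D2:**
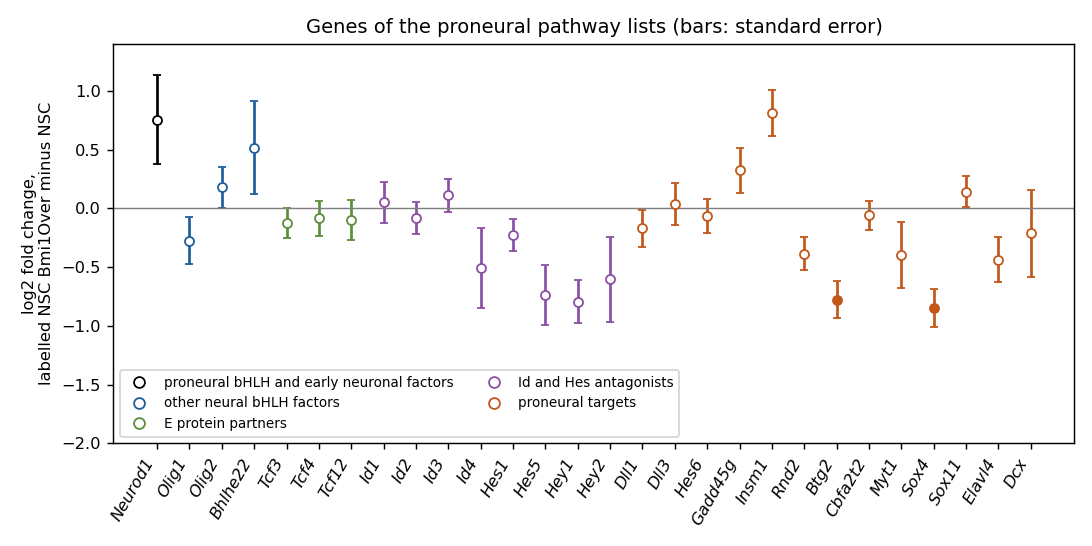
Log2 fold change of tested genes of the proneural pathway lists, libraries labelled NSC Bmi1Over minus NSC, with bars for the standard error. Filled points passed the adjusted threshold of 0.05, which Btg2 and Sox4 did, and Neurod1 at 0.76 did not.

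Early neuronal markers ranged from a few reads to abundant. Per kb of exons, Gap43, Map2 and Ncam1 were at means of 54.4, 53.3 and 38.3 CPM over the 4 libraries, while Nefm was at 0.373, Rbfox3 at 0.275 and Nefl at 0.219, near the 0.280 of Neurod1. Of 11 early neuronal markers, 10 were tested and 1 was called, beside 2.15% of all tested genes. This was Syt1, a calcium sensor of synaptic vesicles. It rose from 9.13 and 27.2 CPM in NSC to 66.5 and 95.8 CPM, by 2.18 ± 0.41 (SE) on the log2 scale (adjusted p = 0.0428, edgeR). Without replicate 2 labelled NSC Bmi1Over the adjusted p was 0.0713, and with DESeq2's size factors it was 0.0517. The log2 fold change was 1.58 without NSC replicate 1 and 3.15 without NSC replicate 2. Gap43 was at a mean of 73.1 CPM in NSC and 92.8 CPM in the others, Map2 at a mean of 899 CPM in NSC and 854 CPM in the others, Ncam1 at 268 and 395 CPM (adjusted p = 0.147 by edgeR, called in 4 of 11 alternatives), and Stmn2 had at most 6 reads per library. Of 8 cortical projection neuron markers, 5 were tested and none was called, and the vesicular glutamate transporter Slc17a6 had no read. Nefm, Rbfox3, Nefl, Stmn2 and Slc17a6 were named after their values were seen.

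H3K27me3 covered the promoters of 7 of the 9 factors, in both peak lists. A promoter peak was any peak within 5 kb of an annotated transcription start site (TSS). Such peaks were found at 8.86% of protein-coding genes in the NSC list, 4.39% in the NSC Bmi1Over list and 4.14% in both. The factors without one were Neurod4 and Neurod6. Their nearest NSC peaks lay 1691255 and 225637 bp from the TSS. The same 7 factors were marked in each list with a window of 1 kb, with a −log10 q of at least 3, with a fold enrichment of at least 5 and with peaks of at least 1000 bp. As each list comes from 1 library, its values have no replicate error.

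**Figure D3:**
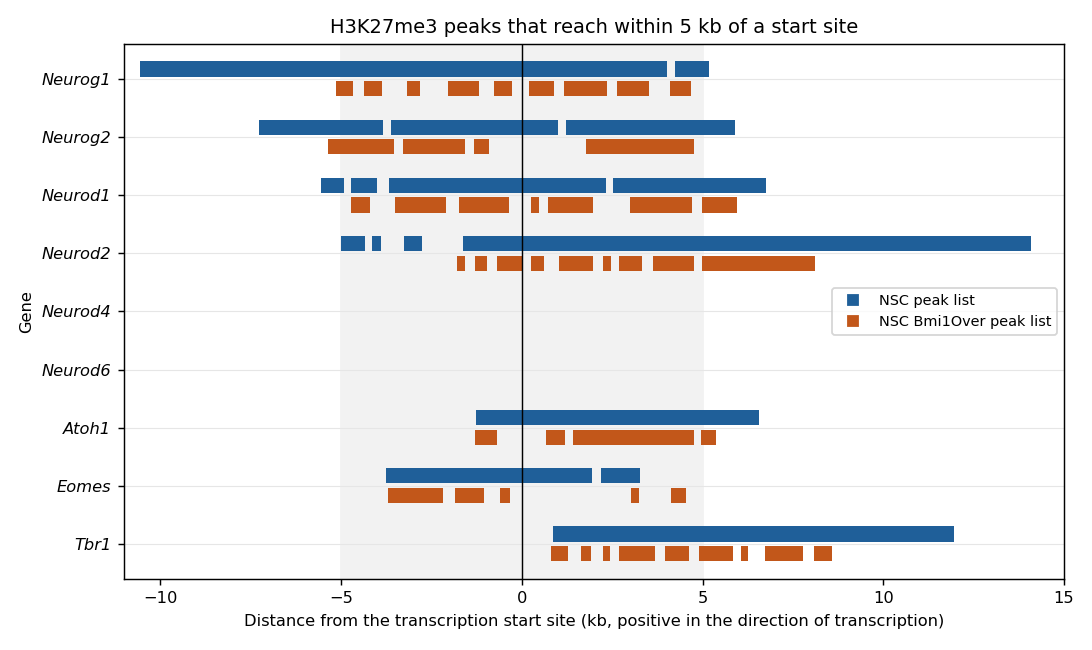
H3K27me3 peaks that reach within 5 kb of a TSS of each factor, by distance from the outermost TSS in kb, with the NSC list above and the NSC Bmi1Over list below for each gene. The shaded area is the window of 5 kb on each side. Neurod4 and Neurod6 have no peak, and the NSC Bmi1Over peaks are shorter and none spans this TSS.

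In NSC the neurogenins and Neurod1 were covered almost without a break. Of the 10 kb around the TSS, peaks took 9795 bp at Neurog1, 9561 bp at Neurog2 and 9296 bp at Neurod1. Neurod2, a factor of maturing cortical neurons, had 7995 bp, Eomes 6760 bp, Atoh1 6259 bp and Tbr1 4128 bp. The median over genes marked in both lists was 3370 bp. The strongest peak of the set spanned 15687 bp at Neurod2 (chr11:98315575-98331261), with a fold enrichment of 9.04 over MACS2's background. At Neurog1 a single peak of 14572 bp (chr13:56248141-56262712) ran over the whole gene with a fold enrichment of 7.31. Joined across gaps of up to 1 kb, the marked stretches in NSC were 7016 to 31751 bp long, with the longest at Tbr1.

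In the NSC Bmi1Over list the covered length was shorter at each of these 7 factors. It was 6627 bp at Neurog2, 6494 bp at Neurod1, 5888 bp at Neurog1, 4565 bp at Neurod2, 4545 bp at Atoh1, 3205 bp at Eomes and 2685 bp at Tbr1. The ratio to NSC ran from 0.474 at Eomes to 0.726 at Atoh1, with a median of 0.650. Over 846 genes marked in both lists the median ratio was 0.386. That median includes genes with no covered length around the outermost TSS in the NSC Bmi1Over list, whose ratio is 0. All 7 factors had some, so that the medians do not compare like sets. The NSC Bmi1Over list was smaller as a whole, with 6810 peaks against 12982, and neither list holds the depth of its library. The study's methods give read totals for the ChIPSeq replicates without naming the ones kept, and the larger total was higher for NSC than for NSC Bmi1Over. The part of depth in the shorter peaks and in the ratio was not tested.

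What was marked in the NSC Bmi1Over list was nearly all marked in NSC as well. Between 86.7% (Eomes) and 99.8% (Neurod1) of the covered length in the NSC Bmi1Over list was shared with NSC, while 41.1% to 72.1% of the length in NSC was shared with NSC Bmi1Over. The mark was called as more and shorter peaks, 47 with a median length of 637 bp against 17 with a median length of 4239 bp. The median fold enrichment of these peaks was 5.14 in the NSC Bmi1Over list and 6.05 in the NSC list.

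The peak calls at the TSS itself differed between the lists. In NSC the outermost TSS lay inside a peak at 6 of the 7 marked factors, all but Tbr1. In the NSC Bmi1Over list it lay inside a peak at none of them. Over genes marked in both lists, the TSS was inside a peak at 55.3% in NSC and 21.6% in NSC Bmi1Over. The gap in the NSC Bmi1Over list was 248 bp at Neurod2, 471 bp at Neurog1, 607 bp at Neurod1, 1334 bp at Atoh1, 2674 bp at Neurog2 and 3340 bp at Eomes. These gaps lie between the shorter peaks of the smaller list, and the part of depth in them was not tested. Tbr1 has several annotated TSSs. The RefSeq one, at chr2:61804453, was inside a peak in NSC and outside in NSC Bmi1Over, and of the other downstream TSSs 2 were inside a peak in both lists. With the RefSeq TSS of each gene the counts were 7 of 9 factors in NSC and 0 of 9 in NSC Bmi1Over.

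The promoter sequences are shown for factors with and without the mark, since the 2 without it had the fewest CpG. The lines below are the reference sequence of the sense strand, 5′ to 3′, from 250 bases before the RefSeq start to 50 after it (GRCm38.p6), with each CG dinucleotide in capitals. Neurog1 (chr13:56252131-56252430, minus strand), Neurod1 (chr2:79456587-79456886, minus strand) and Neurog2 (chr3:127632886-127633185, plus strand) were marked in both lists. Neurod4 (chr10:130280205-130280504, minus strand) and Neurod6 (chr6:55681214-55681513, minus strand) were marked in neither.
Neurog1: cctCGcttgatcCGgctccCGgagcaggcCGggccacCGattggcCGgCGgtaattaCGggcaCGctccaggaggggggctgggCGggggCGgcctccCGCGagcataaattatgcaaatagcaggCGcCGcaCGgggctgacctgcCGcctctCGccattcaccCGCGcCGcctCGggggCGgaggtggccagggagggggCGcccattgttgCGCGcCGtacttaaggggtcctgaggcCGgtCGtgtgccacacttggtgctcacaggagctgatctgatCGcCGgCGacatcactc
Neurod1: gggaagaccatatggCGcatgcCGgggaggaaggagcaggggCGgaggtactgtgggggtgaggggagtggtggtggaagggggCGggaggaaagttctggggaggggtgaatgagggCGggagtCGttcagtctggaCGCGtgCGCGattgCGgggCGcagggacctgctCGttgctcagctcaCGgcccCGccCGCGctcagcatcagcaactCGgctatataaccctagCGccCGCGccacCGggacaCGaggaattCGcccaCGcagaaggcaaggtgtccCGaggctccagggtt
Neurog2: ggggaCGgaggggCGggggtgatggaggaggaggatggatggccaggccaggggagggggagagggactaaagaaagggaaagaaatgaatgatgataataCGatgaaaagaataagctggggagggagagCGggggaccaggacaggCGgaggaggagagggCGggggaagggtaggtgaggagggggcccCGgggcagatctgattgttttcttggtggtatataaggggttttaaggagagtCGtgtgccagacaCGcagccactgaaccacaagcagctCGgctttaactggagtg
Neurod4: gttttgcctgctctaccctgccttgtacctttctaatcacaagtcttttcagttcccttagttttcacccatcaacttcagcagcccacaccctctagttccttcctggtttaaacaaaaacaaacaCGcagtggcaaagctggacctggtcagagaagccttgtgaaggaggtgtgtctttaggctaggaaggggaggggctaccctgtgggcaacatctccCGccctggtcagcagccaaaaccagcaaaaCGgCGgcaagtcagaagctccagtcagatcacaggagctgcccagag
Neurod6: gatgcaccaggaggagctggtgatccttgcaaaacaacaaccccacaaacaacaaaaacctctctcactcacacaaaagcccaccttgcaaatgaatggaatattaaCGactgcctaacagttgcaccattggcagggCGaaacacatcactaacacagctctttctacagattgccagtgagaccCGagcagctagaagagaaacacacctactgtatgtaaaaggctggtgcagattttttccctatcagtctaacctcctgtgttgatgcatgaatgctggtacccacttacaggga

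Neurog1 held 32 CpG in these 300 bases, Neurod1 26 and Atoh1 20, while Neurod4 held 4 and Neurod6 held 3. Neurod2 held 16, Neurog2 and Eomes 10 each, and Tbr1 7. The median over 16505 promoters was 14. In the wider window of 2 kb around the outermost TSS, Neurog2 had the most CpG at 164, followed by Neurog1 at 137, Eomes at 126, Atoh1 at 111, Neurod2 at 82 and Neurod1 at 62. Tbr1 had 33 there, and 70 around its RefSeq TSS. The unmarked Neurod6 and Neurod4 had the lowest values, 23 and 16. The median over protein-coding genes was 61.

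**Figure D4:**
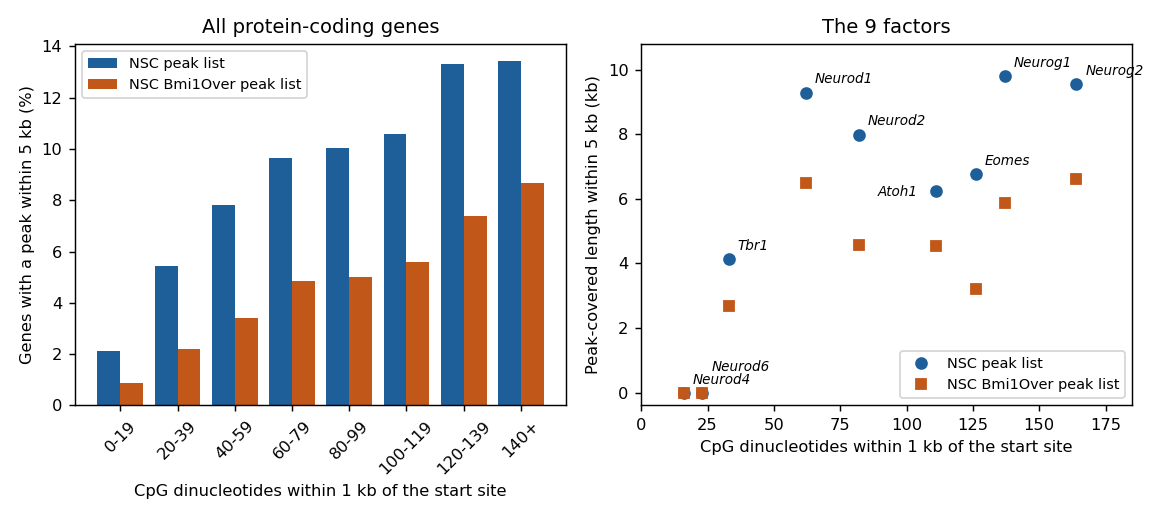
Left, the share of protein-coding genes with a peak within 5 kb of the TSS, by the number of CpG within 1 kb of the TSS, for each peak list. Right, the covered length within 5 kb of the TSS against the same number of CpG for the 9 factors, where Neurod4 and Neurod6 lie at 0 in both lists.

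Over all protein-coding genes the share with H3K27me3 rose with CpG number. It was 2.11% in NSC and 0.868% in NSC Bmi1Over for genes with fewer than 20 CpG in the window, and 13.4% and 8.66% for those with 140 or more. The E-box CANNTG, searched on both strands, was found in 5 of the 9 promoters, Neurod2 with 3 copies among them, and in 68.3% of all promoters of that length. CAGATG, an E-box bound by neurogenins, was in 1 of 9 and in 14.5% of all promoters, CAGCTG in 0 of 9 and 15.2%, and the T-box motif GTGTGA in 1 of 9 and 12.7%. The 3 E-box forms overlap, as CAGATG and CAGCTG are both cases of CANNTG.

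Among the 9 factors, the ones without the mark were not the ones with the most reads. Neurod6 had neither a peak nor a read. Neurod4, also without a peak, had 2 to 4 reads per library, fewer in total than Neurod1, Neurog2, Tbr1 and Eomes, each of which carried the mark. Over all protein-coding genes, the median level was 0.0519 CPM per kb for those marked in both lists and 1.44 CPM per kb for those marked in neither. No read in any library was found for 19.7% of the former and 22.4% of the latter.

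Of the 11 other neural bHLH genes, 6 had a promoter peak in NSC and 5 in NSC Bmi1Over. Olig1 and Olig2, the most abundant, had none in either list. Olig3 was covered over all 10000 bp of the window in NSC and had no read. Bhlhe22 was marked over 8904 bp in NSC and 6713 bp in NSC Bmi1Over and had 13 to 61 reads per library. Atoh7 and Nhlh1 had no peak and at most 3 reads per library. The E protein genes had no promoter peak, and Sox4 and Btg2 had none either. Of 14 target genes the NSC list marked 2 and the NSC Bmi1Over list 1. Of the 8 Id and Hes genes 3 were marked in each list.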

How the data were processed

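RNASeq was available for 2 libraries of NSC and 2 labelled NSC Bmi1Over, and H3K27me3 ChIPSeq for 1 library of each. Reads were trimmed with Trim Galore, aligned to mm10 with STAR, and deposited by the authors as counts of reads per gene, without normalisation. The STAR version and annotation are not given in the sources used here. For ChIPSeq the authors aligned reads with Bowtie2 2.3.4 and called broad peaks with MACS2 per library, after discarding the weaker replicates. The deposited peak lists give each peak's enrichment as a fold over the background MACS2 estimated, the −log10 of a p-value and q-value, and a display score that was not used.

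Unstranded counts, scaled by TMM, were tested in edgeR 4.0.16 (quasi-likelihood F-test, no term for the replicate number) in R 4.3.3, over the 15521 genes kept by filterByExpr, with Benjamini-Hochberg adjustment and a threshold of 0.05. DESeq2 1.42.0 was an alternative. Rows for unmapped, multi-mapped, unassigned and ambiguous reads, 27.8% to 34.1% of reads, were left out. Levels are CPM on TMM-scaled library sizes, per kb of merged exons where genes are compared. Gene models came from GENCODE vM21, which matched 50376 of 50686 identifiers, and promoter sequences from RefSeq (GRCm38.p6), which matched all 9 factors. The steps were tested on simulated counts. The labels call the replicates separate libraries and the study's methods call them biological replicas.

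The factors and gene lists were chosen with earlier results of these data known. All 9 factors are named. From the other lists the plan was to name genes past the threshold, and otherwise up to 3 per list by highest level. Further genes, among them Bhlhe22, Atoh7, Nhlh1, Sox10 and more of the neural stem cell markers, are named with their values known. One gene of these lists is not reported here by name. Alternatives were DESeq2, its size factors, library size alone, no low-count filter, a replicate block, stranded sums, a fit of protein-coding genes, omission of each library, other gene lengths, and other limits on peaks.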

Additional observations from a re-analysis of the deposited data

How the results depend on the processing

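The number of called factors was 0 under all 11 alternatives to the fit. The 4 factors without a read could not be called in any fit, and the main fit tested Neurod1 alone. DESeq2 likewise gave an adjusted p for Neurod1 alone, so that the count of 0 says little about the other factors. In each list 7 factors had a promoter peak under all 5 alternatives for peaks. The log2 fold change of Neurod1 ran from 0.35 to 0.96 when libraries were left out in turn and was called in none of the alternatives, with adjusted p from 0.149 to 0.926. The number of genes called over all genes, 334, depended on the setting. It was 1426 with DESeq2's Wald test, 537 with library size alone and 2356 without the low-count filter, and it ran from 176 (without NSC replicate 1) to 2546 (without replicate 1 labelled NSC Bmi1Over) when libraries were left out in turn, where the lone library of a group is taken to vary like the other group. It was 1461 without NSC replicate 2. With DESeq2's size factors it was 244, with stranded sums 329 and with protein-coding genes only 312. With library size alone, log2 fold changes over all genes had a median of -0.165. The cause of these differences was not tested.

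The labels share replicate numbers between the groups, and nothing in them says that equal numbers mark a shared litter or day. The differences between replicate 2 and replicate 1 correlated at 0.169 between the groups, over 15521 genes, and with 2 pairs this does not show a pairing. With the replicate number as a block 3459 genes and 0 factors were called, and the log2 fold change of Neurod1 was 0.67. Of 70 tested genes in the lists the block called 22, against 4 without it. They included Hey1, Hes5, Insm1, Dlx2 and Gad1, with adjusted p of 0.00304, 0.0341, 0.00208, 0.00717 and 0.0117 by edgeR, and Aldoc, Cspg4, Sox2, Fabp7 and Slc1a3, with 0.00095, 0.00431, 0.0102, 0.0195 and 0.0116. DESeq2 called 11 of the listed genes.

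Counts of 0 to 65 reads per factor limit what these libraries can show, and the ChIPSeq lists have neither replicates nor a depth assigned to the library kept.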

Other observations

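Promoter peaks were also found at genes of the GABAergic lineage, the ventral counterpart of the dorsal programme driven by the neurogenins. All 7 had one in NSC and 6 had one in NSC Bmi1Over, beside 8.86% and 4.39% of protein-coding genes. Gad1 had none within 5 kb of its outermost TSS and was counted in NSC through another annotated TSS. Of 8 cortical projection neuron markers, 6 were marked in NSC and 5 in NSC Bmi1Over. Of the 7 GABAergic genes, 4 were tested and none was called. Dlx2 was at 1.65 and 1.27 CPM in NSC and at 0.171 and 0.507 CPM in the libraries labelled NSC Bmi1Over (log2 fold change -1.86, adjusted p = 0.0642 by edgeR). That fold change ran from -3.06 to -1.53 when libraries were left out in turn. Gad1, which makes GABA, was at 16.9 and 9.89 CPM in NSC and at 3.54 and 7.56 CPM in the others (adjusted p = 0.0940). Both were called in 6 of 11 alternatives, with DESeq2 at adjusted p of 0.0441 for Dlx2 and 0.00586 for Gad1. Over the alternatives the adjusted p ran from 0.000108 to 0.235 for Dlx2 and from 3.03e-07 to 0.323 for Gad1.

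Among 6 astrocyte markers 1 was called, beside 2.15% of all tested genes. Aldh1l1 fell from a mean of 108 to 59.6 CPM, with an adjusted p of 0.0440 by edgeR, which was 0.124 without NSC replicate 1 and 0.0897 without replicate 2 labelled NSC Bmi1Over. Aldoc was at 113 and 82.8 CPM in NSC and at 52.4 and 59.9 CPM in the others, with a log2 fold change of -0.80 and an adjusted p of 0.0508 by edgeR. It was called in 6 of 11 alternatives, with DESeq2 at 0.000708 and a range of 3.66e-06 to 0.314. Of 6 oligodendrocyte lineage markers and 8 neural stem cell markers none was called. Cspg4 (log2 fold change 0.53, adjusted p = 0.239 by edgeR) was called in 2 of the 7 alternatives that kept all libraries. Its fold change ran from 0.10 to 0.86 when libraries were left out in turn. Pdgfra was called in 2 alternatives, in opposite directions, without replicate 1 (0.51) and without replicate 2 (-0.92) labelled NSC Bmi1Over. Sox10 was called in 1.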
